A study of Mus musculus with 9 samples.

Results

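RNA pulled down with an antibody against HuR was set against the Input RNA of the lysate in mouse liver, and the question was which RNA classes and liver programmes lay above or below Input in every HuR library. All samples were whole healthy liver of wild-type C57BL/6 mice aged 8 weeks, with no treatment or transgene named in the labels. This comparison takes 6 of the 9 samples of the series, 3 HuR pull-downs and 3 Inputs; the other 3 are pull-downs with control IgG, which are given beside the HuR values as the background of the method. Each pull-down was native, without crosslinking of protein to RNA, and used the lysate of 1 liver. The 3 Inputs are represented by 1 pooled column, so Input has no spread, and no test of HuR against Input was possible. Of 33732 gene names with values, 6339 averaged 0.5 RPKM or more over the HuR mean and Input and were kept. RPKM is the read count scaled to exon length and library size.

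HuR, encoded by Elavl1, belongs to the ELAV family of RNA-binding proteins, sits mostly in the nucleus and moves to the cytoplasm. It is known for binding U-rich and AU-rich stretches, often in 3′ untranslated regions (UTRs) and introns, and for stabilising many short-lived mRNAs. In hepatocytes its known targets include mRNAs of lipid transport, methionine metabolism and the respiratory chain. In a pull-down of this kind, an RNA that travels with the protein takes a larger share of the reads than in the lysate, and an RNA left behind takes a smaller one. RNA that sticks to antibody or beads rises in both HuR and IgG pull-downs.

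The 3 HuR libraries held an estimated 26.3 to 26.9 M reads and the IgG libraries 15.8 to 28.8 M; the depth behind the Input column is unknown. Between 27.9% and 60.5% of the reads of a HuR library fell in the listed exons, against 45.6% in Input. Hepatocyte markers were present throughout: 15 of the 16 listed had values, none was at 0 in Input, and their summed level was 1389 to 1538 RPKM in HuR and 1107 in Input. One HuR library stood apart by sex-linked genes. Xist, transcribed from the inactive X chromosome, stood at 0.0021, 10.2 and 0.463 RPKM over HuR 1, 2 and 3 with Input at 0.52, while the Y-linked Eif2s3y was at 1.4, 0 and 0.868 RPKM in HuR against 0.158 in Input. HuR 2 was thus the HuR library high for Xist and at 0 for Eif2s3y. The sample labels give no sex, but the column headers of the table end in M, M and F for libraries 1, 2 and 3 of both HuR and IgG, letters that no source explains. If they stand for male and female, HuR 2, headed M, and HuR 3, headed F and with Eif2s3y present, went against them. The deposited fold columns also number these 2 libraries in the opposite order, so which of them is HuR 2 and which HuR 3 is uncertain; counts over all 3 libraries do not depend on it. Counts without the library called HuR 2 are given after the gene lists. Elavl1 itself was low in every library, at 0.95, 0.304 and 0.99 RPKM in HuR and 0.095 in Input, and fell below the filter.

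The make-up of the libraries differed most in ribosomal RNA, mRNA and small nuclear RNA. The 3 genes that cover the ribosomal repeat (CT010467.1, Gm42418 and AY036118) took 73.4% of the listed reads in Input, and 47.2%, 42.6% and 31.8% in HuR 1, 2 and 3. Protein-coding genes other than Lars2 took 21.5%, 30.8% and 13.9% in HuR and 4.47% in Input, so that every HuR library was above Input. In the IgG pull-downs the protein-coding share was 13.4%, 3.88% and 5.63%, below all 3 HuR libraries (exact permutation test, two-sided, p = 0.1, the smallest p that 3 against 3 allows; 0.467 after Benjamini-Hochberg adjustment over 14 classes). Small nuclear RNAs, the RNA cores of the spliceosome, took 8.74%, 4.57% and 45.9% in HuR against 0.261% in Input. HuR 3 lay above all 3 IgG libraries, at 12.5%, 1.51% and 7.51%, while HuR 1 and HuR 2 lay within the IgG range (exact permutation p = 0.6). Small nucleolar RNAs, which guide modification of ribosomal RNA, took 3.21%, 4.28% and 0.868% in HuR and 0.401% in Input, yet 18.1%, 3.6% and 4.06% in IgG. Without the ribosomal repeat, protein-coding genes other than Lars2 held 40.7%, 53.7% and 20.3% of the remaining reads in HuR and 16.8% in Input. Lars2 alone held 3.73%, 2.63% and 1.13% in HuR and 37.1% in Input, so every HuR library lay above Input only with Lars2 left out. Of all listed reads Lars2 took 1.97%, 1.51% and 0.774% in HuR, 9.86% in Input and 4.84%, 9.33% and 4.03% in IgG. The order of the protein-coding share against IgG rests on leaving it out too.

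**Figure D1:**
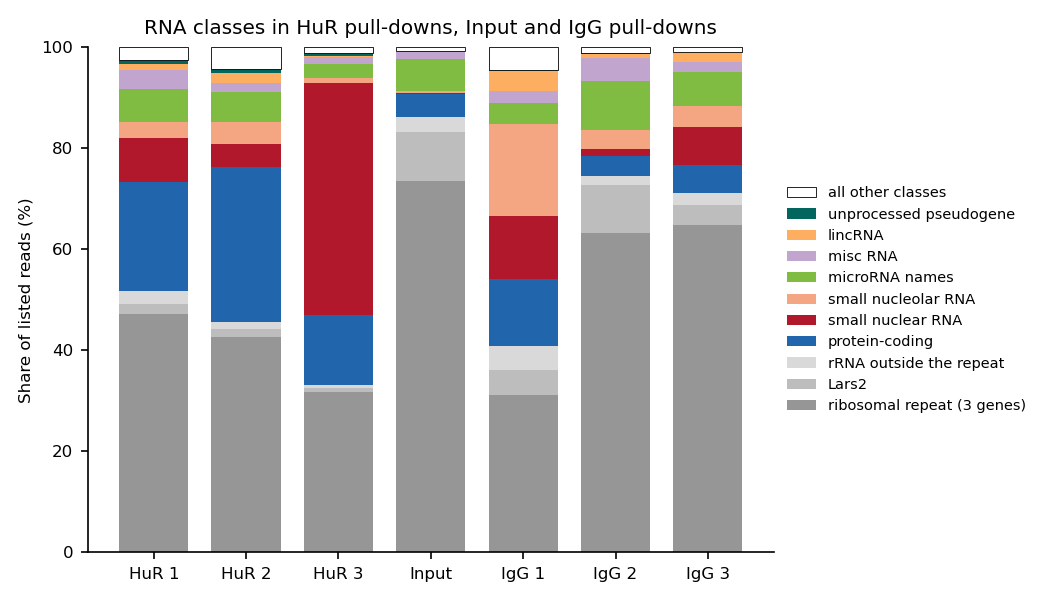
Share of listed reads by RNA class (percent, stacked to 100) in the 3 HuR libraries, the pooled Input column and the 3 IgG libraries. The grey ribosomal repeat fills 73.4% of Input and 31.8% to 47.2% of the HuR libraries. The blue protein-coding part, without Lars2, is larger in each HuR library than in Input, and the red small nuclear RNA part reaches 45.9% in HuR 3.

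Most kept genes lay above Input. A gene was counted above (or below) Input when its log2(RPKM + 0.5) was higher (or lower) than Input in all 3 HuR libraries. Of the 6339 kept genes, 3749 (59.1%) lay above and 337 (5.32%) below; 1801 (28.4%) were at least 2-fold above in all 3 and 144 (2.27%) at least 2-fold below. By the same rule 1013 genes (16%) lay above Input in all 3 IgG libraries and 959 (15.1%) below. Among 4118 kept protein-coding genes, 2919 (70.9%) lay above Input and 67 (1.63%) below, with 1324 (32.2%) and 13 (0.316%) past 2-fold. A gene with Input under 0.5 RPKM was kept only if its HuR mean was higher, so it could not be counted below. The median Input of kept protein-coding genes was 0.352 RPKM, so these counts cannot be weighed against each other. In the 824 with the highest Input, from 1.02 RPKM upward, either direction was open, and 500 (60.7%) lay above and 55 below. The limit set by the filter holds for every class and list. The median protein-coding gene differed from Input by a log2 of 1.5, 1.43 and 1.05 in HuR 1, 2 and 3, and of 0.66, -0.19 and -0.31 in IgG 1, 2 and 3. These medians are used below as the level of the typical mRNA: measured from them, 862 protein-coding genes (20.9%) lay above the typical mRNA in all 3 HuR libraries and 792 (19.2%) below it. Over all 6339 kept genes that scale gave 1238 above and 1343 below, and scaling to the listed reads outside the ribosomal repeat gave 1762 above and 565 below. Differences on this scale understate the change of genes near the 0.5 RPKM pseudocount.

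The ribosomal RNA class lay below Input and not one of its members above. Of 120 kept genes of that class, 94 were below Input in all 3 HuR libraries, 28 of them at least 2-fold, and the class medians were -0.31, -1.80 and -2.01 on the log2 scale. Most are copies of 5S ribosomal RNA, the small RNA of the large ribosomal subunit: 73 of 88 kept copies named n-R5s lay below. The copy n-R5s41 was at 0.316, 0.638 and 0.937 RPKM in HuR against 9.52 in Input, and n-R5s71 at 3.16, 0 and 2.19 RPKM against 14.6. IgG values of n-R5s71 were 39.7, 11 and 30 RPKM, and HuR was lower than IgG (limma, adjusted p = 0.0464, log2 difference -3.83 ± 0.91 SE; all 3 HuR below all 3 IgG libraries). Of 107 genes of the class tested against IgG, n-R5s71 was the only 1 called. In 24 of the 107 all 3 HuR libraries lay below all 3 IgG libraries, beside 3.48% of all genes tested. Class medians in IgG 1, 2 and 3 were 0.92, -0.71 and -0.37, and HuR 1 lay within that range. Reads of near-identical copies cannot be assigned to 1 of them with confidence.

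Small nuclear RNAs were above Input about as often as other genes. Of 166 kept genes, 99 (59.6%) were above Input in all 3 HuR libraries and 2 below, beside 59.1% of all kept genes, with medians of 2.39, 1.25 and 2.72. Rnu11, the U11 RNA of the minor spliceosome, was at 2003, 1602 and 672 RPKM in HuR against 20.7 in Input, a mean log2 difference of 5.93 ± 0.83 (SD, n = 3). Rnu1a1, the U1 RNA that pairs with 5′ splice sites, was at 16307, 4594 and 73461 RPKM against 401, and Gm25679, whose sequence is contained in Rnu1a1 without a differing base, at 27255, 10568 and 153087 against 691. Gm23444, which differs from the U2 gene Rnu2-10 at 1 of 191 bases and was named after its values were seen, was at 1471, 1108 and 275363 RPKM against 93.7. HuR 3 was the highest HuR library for each of these 3 genes, and Rnu11 was lowest there. The same RNAs were high in IgG: Rnu11 was at 2245, 332 and 112 RPKM and Gm23444 at 15166, 879 and 25653, overlapping the HuR range, and none of 132 small nuclear RNA genes tested differed between HuR and IgG (limma, adjusted p under 0.05; 37 of 5510 genes tested, 0.672%, were higher and 7, 0.127%, lower). The first 30 bases of U1 and a stretch of U2 are shown because genes of these 2 RNAs were highest in HuR 3; capitals mark the bases of U1 that pair with the 5′ splice site and those of U2 that pair with the branch site (GENCODE M21, GRCm38/mm10, Rnu1a1 at chr11:87422867-87422896 and Rnu2-10 at chr11:101658259-101658288, both on the plus strand).
Rnu1a1: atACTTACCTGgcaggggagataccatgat
Rnu2-10: taagatcaagtGTAGTAtctgttcttatca

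Cajal body RNAs, which guide modification of the spliceosomal RNAs, lay above Input in 18 of 24 kept genes (75%) and below in none. Their medians were 3.99, 3.26 and 2.95, and 59.1% of all kept genes lay above. In all 3 IgG libraries 15 of the 24 lay above Input, with medians of 4.27, 1.93 and 0.87. Of 21 tested, 3 had all 3 HuR libraries above all 3 IgG libraries, beside 31.3% of all genes tested. Scarna2 was at 272, 421 and 117 RPKM in HuR against 8.06 in Input, and its IgG values of 259, 65.1 and 205 overlapped HuR. Gm22009, a Cajal body RNA inside Kpna4, was at 466, 670 and 378 RPKM against 8.28, and its IgG values of 223, 38.9 and 45.7 were all below HuR. Small nucleolar RNAs lay above Input in 196 of 295 kept genes and below in 7. The H/ACA kind named Snora was above in 37 of 39, with medians of 4.27, 3.48 and 2.59, and the C/D kind named Snord in 51 of 76, with medians of 2.46, 0.90 and 1.68. Snora68 was at 2408, 3004 and 1774 RPKM against 58.6, and Snora2b at 46.9, 30.8 and 22.8 against 0.29. Against IgG the order turned: 77 of 285 small nucleolar RNAs tested had all 3 HuR libraries below all 3 IgG libraries and 2 had them above, beside 3.48% and 31.3% of all genes tested. IgG 1, with class medians of 5.90, was the highest pull-down.

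**Figure D2:**
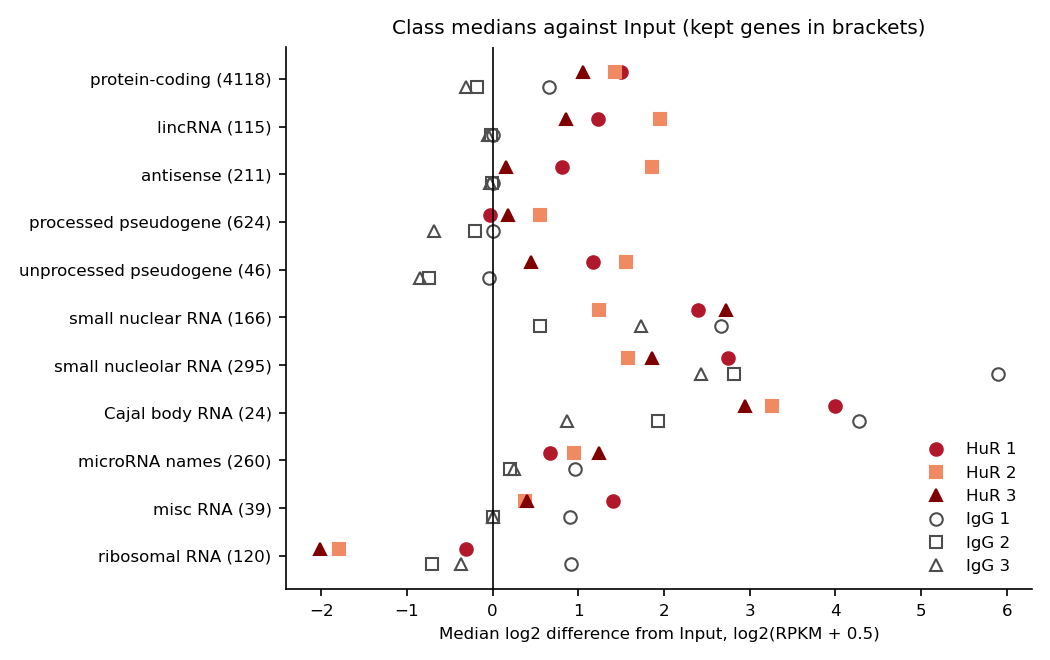
Median log2 difference from Input (log2 of RPKM + 0.5) over the kept genes of each RNA class, in the 3 HuR libraries (filled, upper row of each class) and the 3 IgG libraries (open, lower row). Protein-coding genes sit at 1.05 to 1.5 in HuR and -0.31 to 0.66 in IgG, small nucleolar RNAs are higher in IgG 1 than in any HuR library, and ribosomal RNA is below 0 in each HuR library.

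Other RNA classes were mixed. Of 260 kept genes annotated as microRNAs, 102 (39.2%) lay above and 36 (13.8%) below Input, beside 59.1% and 5.32% of all kept genes. In all 3 IgG libraries 104 of the 260 lay above Input. Mir320 was at 10.1, 21.8 and 9.06 RPKM in HuR against 0.333 in Input, and Mir27a at 5.47, 12.5 and 9.4 with Input listed at 0. IgG was at 10, 4.12 and 5.08 RPKM for Mir320 and 11.8, 5.03 and 4.78 for Mir27a, with IgG 1 inside the HuR range for both. Some genes of the class are other RNAs by sequence: Gm47276 is contained in a 5S gene and Gm47305 in the 7SL gene Rn7s2. The catalytic RNAs Rmrp, of the RNase MRP particle, and Rpph1, of RNase P, lay above at 6039, 7172 and 3547 RPKM against 258 and at 893, 1793 and 610 against 154. Rmrp was at 11861, 2517 and 1467 RPKM in IgG, and Rpph1 at 655, 283 and 292, with IgG 1 inside the HuR range. Among long non-coding RNAs, 49 of 115 lincRNAs (42.6%) lay above and 3 (2.61%) below, a smaller share above than in all kept genes. Malat1, a nuclear-speckle RNA, was at 355, 514 and 154 RPKM against 17.5 in Input, and IgG at 97.7, 19.2 and 30.4 did not reach the lowest HuR library. Neat1, the scaffold of paraspeckles, was at 26.9, 19.8 and 10.7 RPKM against 1.55, with IgG 1 at 19.9 inside the HuR range. The annotated RNA elements Gm27694, inside Malat1, and Gm28006 and Gm27505, inside Neat1, led the miscellaneous RNA class and share those transcripts' reads.

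Processed pseudogenes did not share the rise of mRNA. Of 624 kept, 129 (20.7%) lay above Input and 101 (16.2%) below, with medians of -0.04, 0.55 and 0.18. Of all kept genes 59.1% lay above and 5.32% below. Of 46 kept unprocessed pseudogenes 18 (39.1%) lay above and 2 (4.35%) below. The most abundant of these, named after their values were seen, were Gm10925 at 928, 657 and 817 RPKM against 126 in Input, Gm10222 at 1219, 790 and 688 against 112, and Gm28661 at 917, 403 and 753 against 135. IgG values of Gm10925 were 80.4, 27.6 and 31 RPKM, all below the HuR libraries and below the Input value. Gm13341 was at 459, 60.2 and 469 RPKM in HuR, 8.13 in Input and 4.88, 2.34 and 5.83 in IgG, and was higher in HuR than IgG (limma, adjusted p = 0.0237, log2 difference 5.68 ± 1.07 SE). No lines of the mitochondrial chromosome are in the table analysed here. It therefore cannot be told whether reads of mitochondrial transcripts were counted in these pseudogenes, and this was not tested.

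The 15 genes farthest above Input, among named genes of 5 RPKM or more outside the structural RNA classes and without Gm and Rik names, fell into 2 kinds. One kind has an exon over a small RNA gene, among them Rpl12, Rpl32 and Rpl10 of the ribosome, Ccdc107, the prohibitin gene Phb2 and the non-coding host Snhg15. Rpl12 was at 277, 102 and 47.7 RPKM against 3.3 in Input, but at 0.0216, 0 and 0.238 against 0.0419 without the exon that covers the small RNA. Ccdc107, next to Rmrp, went from 997, 1230 and 606 against 42.1 to 0.158, 5.5 and 1.54 against 1.13, no longer on 1 side of Input. Rpl32 kept 13, 8.81 and 15.9 RPKM against 1.8. Phb2 went from 61.6, 64.9 and 27 against 1.46 to 1.28, 2.18 and 1.05 against 0.609. IgG 1 was above the highest HuR library for Rpl12, Rpl32, Rpl10, Ccdc107 and Snhg15, with Rpl12 at 560 RPKM, but not for Phb2, at 9.45. In these exons the reads of host and small RNA cannot be told apart.

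The other kind has no such exon. Cyb5r3, a cytochrome b5 reductase of lipid metabolism, was at 81, 59.3 and 79.5 RPKM in HuR against 3.03 in Input, a mean log2 difference of 4.37 ± 0.25 (SD, n = 3). Rida, a deaminase that clears reactive imines, was at 20.5, 18.2 and 21.4 RPKM against 0.811, a difference of 3.97 ± 0.12. Its IgG values of 1.32, 0.364 and 0.109 RPKM lay far below, and HuR was higher than IgG (limma, adjusted p = 0.0196, log2 difference 4.38 ± 0.80 SE). Mettl7a1, a methyltransferase-like protein of lipid droplets, was at 79.9, 72.5 and 43.2 RPKM against 3.89. Ormdl3, a regulator of sphingolipid synthesis, was at 78.2, 27.9 and 23.9 RPKM against 1.56, with HuR 1 the high library. Cd164, a sialomucin, was at 21.7, 14.8 and 12.9 RPKM against 0.837. Slc35e2, of a transporter family, was at 13.1, 21 and 8.39 RPKM against 0.366. Rsl24d1, a ribosome assembly factor, was at 8.56, 10.5 and 7.18 RPKM against 0.215. Nrn1, a neuritin, was at 48.5, 65.7 and 38.3 RPKM against 2.88 and 4.28 to 33.4 in IgG. For these 8 genes all 3 HuR libraries lay above all 3 IgG libraries, as in 31.3% of all genes tested, yet only Rida passed the test. The 8 genes were chosen by their high HuR values, so this is not separate support.

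Only 4 mRNA genes met the same naming rule below Input: at least 2-fold below in all 3 HuR libraries, with 5 RPKM or more in Input. Lars2, the mitochondrial leucyl-tRNA synthetase, was at 1276, 631 and 702 RPKM against 6730 in Input. The last exon held 100% of it, after rounding, in each of these libraries. Lars2 alone took 9.86% of the listed reads of Input, against 4.47% for all other protein-coding genes. Whether these reads come from the Lars2 mRNA was not tested. Cyp2d26, a cytochrome P450, was at 2.03, 4.66 and 2.3 RPKM against 12.3. Zfp654, a zinc finger gene, was at 1.45, 3.43 and 1.13 RPKM against 10, of which the last exon held 0% in Input. Pnck, a calmodulin-dependent kinase, was at 5.18, 2.55 and 4.15 RPKM against 16.9. None of the 4 differed between HuR and IgG (limma, adjusted p from 0.144 to 0.84).

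**Figure D3:**
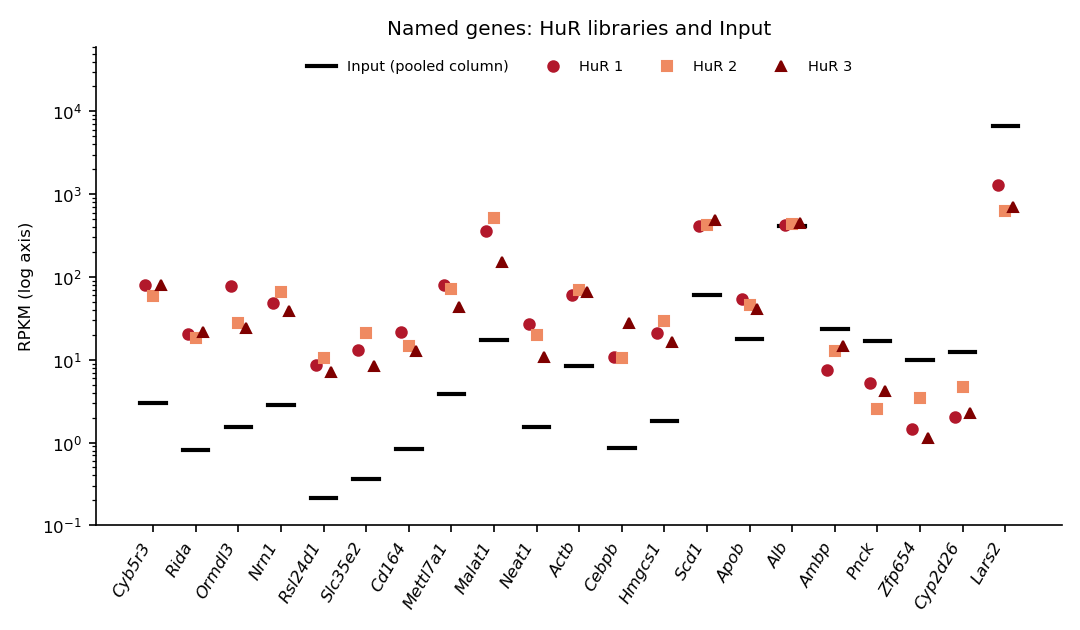
RPKM (log axis) of named genes in HuR 1, 2 and 3 (symbols) and in the pooled Input column (black bar). The 3 HuR libraries lie well above the bar from Cyb5r3 to Hmgcs1 and Scd1, on it for Alb (430 to 444 against 412), and below it from Ambp to Lars2.

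Gene lists were read by their count above or below Input in all 3 HuR libraries and by their position against the typical mRNA. Of the immediate early and other short-lived mRNAs, 18 of 21 kept members lay above Input and none below, with medians of 2.02, 1.97 and 1.85, and 11 lay above the typical mRNA in all 3 libraries against 2 below it. Cebpb, a bZIP transcription factor, was at 10.7, 10.4 and 27.8 RPKM against 0.866 in Input. Tsc22d3, a glucocorticoid-induced leucine zipper, was at 16, 8.83 and 12.8 RPKM against 0.792. Nfkbia, the NF-kappaB inhibitor, was at 7.05, 5.43 and 6.72 RPKM against 0.571, and Errfi1, a feedback inhibitor of the EGF receptor, at 27.2, 34.8 and 28.2 against 4.68. IgG 1 stayed below the lowest HuR library for these 4 genes. No member passed the test against IgG, and 10 of 20 tested had all 3 HuR libraries above all 3 IgG libraries, beside 31.3% of all genes.

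mRNAs of the RNA-binding proteins that act on AU-rich elements and 3′ UTRs lay above Input in 20 of 20 kept members. Their medians were 1.92, 1.57 and 1.63, and 70.9% of all protein-coding genes lay above. The median Input of these members was 0.293 RPKM, so many of them could not have been counted below. Celf1, a GU-rich element binder, was at 6.76, 6.89 and 3.99 RPKM against 0.318. Cpeb4, a polyadenylation factor, was at 4.47, 2.25 and 3.34 RPKM against 0.158, and Zfp36, the decay factor tristetraprolin, at 7.52, 3.33 and 3.86 against 0.477. The hnRNP and SR splicing factors lay above in 28 of 29, with medians of 1.92, 1.76 and 1.51 and 13 above the typical mRNA against 1 below. Their median Input was 0.306 RPKM, so the same limit holds. Srsf3, an SR protein, was at 1.78, 1.97 and 1.91 RPKM against 0.0501, and Srsf5 at 10.4, 10.9 and 3.63 against 0.551. Of the HuR targets taken from the literature 15 of 17 kept members lay above, with medians of 1.70, 1.85 and 1.59, beside 70.9% of all protein-coding genes. The list held 36 names, so many did not pass the filter. The median Input of the kept members was 0.549 RPKM, and those under 0.5 could not have been counted below. Actb, the cytoplasmic actin, was at 61.2, 70 and 65.3 RPKM against 8.34, a mean log2 difference of 2.90 ± 0.10 (SD, n = 3). Mcl1, an anti-apoptotic BCL2 relative, was at 10.4, 9.46 and 3.58 RPKM against 0.427, and Cdc42, a small GTPase, at 6.72, 9.08 and 5.29 against 0.434. Mat2a, the methionine adenosyltransferase of most tissues other than adult liver, was at 2.22, 1.91 and 1.81 RPKM against 0.167. Ndufb6, a complex I subunit, was the exception on the low side, at 0.327, 0.495 and 0.565 RPKM against 0.774. Cycs, cytochrome c, was at 1.15, 0.0463 and 1.2 RPKM against 0.00807 and fell below the filter, with HuR 2 the low library. Uqcrb, of complex III, was at 2.47, 0.865 and 7.67 RPKM against 0.549.

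Cholesterol synthesis and the endoplasmic reticulum chaperones were 2 liver programmes above the typical mRNA. Of the cholesterol list 19 of 23 lay above Input and none below, 16 of them at least 2-fold, with medians of 1.93, 1.63 and 1.60. Hmgcs1, the HMG-CoA synthase of the pathway's start, was at 20.9, 29.1 and 16.4 RPKM against 1.83, Cyp51, the lanosterol demethylase, at 10.1, 7.48 and 7.38 against 0.898, and Ebp, a sterol isomerase, at 15.2, 13.4 and 15.9 against 1.79. Of the chaperone list 17 of 20 lay above and none below, with medians of 1.84, 1.60 and 1.58. Atf4, a stress-response transcription factor, was at 9.56, 9.47 and 4.71 RPKM against 0.716, and the lectin chaperone Calr at 30.6, 66.5 and 27.6 against 6.81. In lipogenesis 18 of 21 lay above. Scd1, the stearoyl-CoA desaturase, was among the most abundant mRNAs at 416, 421 and 487 RPKM against 60, a mean log2 difference of 2.86 ± 0.13 (SD, n = 3), with IgG at 173, 47.1 and 53. In the insulin, IGF and growth hormone axis 11 of 17 (64.7%) lay above, a smaller share than the 70.9% of all protein-coding genes, and members ran from -0.40 to 3.08 in mean log2 difference. The members farthest above were Igf1 at 18.6, 18.2 and 14.2 RPKM against 1.56 and the growth hormone receptor Ghr at 17.1, 8.66 and 9.15 against 1.19.

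The abundant secreted proteins of the hepatocyte lay near Input and hence below the typical mRNA. Alb, serum albumin, was at 430, 442 and 444 RPKM in HuR against 412 in Input, a mean log2 difference of 0.09 ± 0.02 (SD, n = 3). Of 17 kept plasma carriers 6 lay above Input and 2 below, none at least 2-fold above, with medians of 0.22, 0.65 and 0.03; 12 lay below the typical mRNA in all 3 libraries and 0 above. Ambp, the precursor of alpha-1-microglobulin and bikunin, was at 7.57, 12.8 and 14.8 RPKM against 23.5. Gc, the vitamin D carrier, was at 95.4, 80 and 80.6 RPKM against 48.7. Of 14 serpins 12 lay below the typical mRNA and 1 above, with medians of 0.49, 0.17 and 0.24. Serpinf2, the plasmin inhibitor, was farthest above Input, at 75.2, 46.9 and 50.2 RPKM against 10.9, and Serpina1b, an alpha-1-antitrypsin gene of a near-identical family, stood at 68, 75.9 and 51.6 against 44.2. For Alb, Gc and Serpina1b the direction turned with the scaling: outside the ribosomal repeat they lay below Input, with mean log2 differences of -0.94, -0.22 and -0.47. Of 16 apolipoprotein and VLDL genes 9 lay below the typical mRNA and 1 above. Apob, the structural protein of VLDL, was at 54.8, 45.7 and 41.3 RPKM against 17.7, a log2 difference of 1.38 ± 0.20 that lies at the typical mRNA. Mttp, which loads lipid onto it, was at 6.06, 8.05 and 5.32 RPKM against 1.33.

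The lists were also read among genes of like level in Input. Kept protein-coding genes were cut by Input level into 3 bins of equal size. In the 1373 genes of the highest bin the medians were 1.30, 1.21 and 1.04, against 1.67, 1.66 and 1.09 in the lowest. All 17 plasma carriers and 14 serpins were in the highest bin, with medians of 0.22, 0.65 and 0.03 and of 0.49, 0.17 and 0.24, while 9 immediate early genes of the same bin had 2.42, 2.15 and 2.25, and 13 cholesterol genes 2.16, 2.51 and 1.79. These bins were set after the data had been examined. No set test was run, so the lists' distance from other genes of the same level is a description.

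Other secreted and metabolic programmes lay below the typical mRNA or were spread around it. Of 34 complement and coagulation genes 18 (52.9%) lay above Input and 5 below, beside 70.9% of all protein-coding genes above. Against the typical mRNA 6 lay above and 15 below. Mean log2 differences ran from -1.22 to 3.47, and the members named are among the highest. Coagulation factor F9 was at 16, 9.25 and 9.3 RPKM against 0.9, and prekallikrein, Klkb1, at 18.3, 15.7 and 11.3 against 1.51. Cfhr2, of the factor H family, was at 57.1, 9.33 and 36.5 RPKM against 1.98, with IgG at 5.19, 0.194 and 0.108, and was higher in HuR than IgG (limma, adjusted p = 0.0462). Of 43 cytochrome P450 genes 17 (39.5%) lay above and 2 below. Against the typical mRNA 6 lay above and 14 below. Their mean log2 differences ran from -1.95 to 2.85, and the members named are again among the highest. Cyp3a11 was at 85.5, 30.6 and 95.2 RPKM against 8.31 and Cyp2c50 at 23.8, 12.1 and 25.3 against 2.75, both with HuR 2 the lowest, and reads of such families can be shared between members. Fatty acid oxidation had 25 of 32 above and none below. Amino acid catabolism had 22 of 37 above (59.5%), the urea cycle 7 of 11 (63.6%) and gluconeogenesis with glycogen 13 of 19 (68.4%), each a smaller share than the 70.9% of all protein-coding genes. The lowest members of these lists had mean log2 differences of -0.62, -0.39 and -0.44. Those named here are among the highest. Ass1, of the urea cycle, was at 42, 49.6 and 37.3 RPKM against 6.25, the glutamine synthetase Glul at 28, 33.9 and 28.6 against 3.58, and G6pc, which frees glucose from its phosphate, at 38, 35.8 and 29.2 against 6.14. In the methionine cycle Bhmt was at 15.1, 23.8 and 28.9 RPKM against 3.59. Uox, which oxidises uric acid, was at 40.9, 30.4 and 24.6 RPKM against 5.03.

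The respiratory chain lists lay low. Complex I had 11 of 29 kept members above Input and 4 below, with medians of 1.0, 0.67 and 0.89, and 8 below the typical mRNA against 1 above. Complexes II to V had 19 of 31 above and 4 below, with medians of 1.28, 0.39 and 1.02, and 13 below the typical mRNA against 3 above. Cox7a2l, which helps assemble respiratory supercomplexes, stood out at 20, 21.3 and 10.8 RPKM against 1.17 in Input and 1.93, 0.905 and 0.225 in IgG (limma, adjusted p = 0.0462). Uqcr10, a small subunit of complex III, was at 1.04, 0.0866 and 0.342 RPKM against 3.16. The proteasome had 9 of 20 above and none below. Cytosolic ribosomal proteins had 35 of 52 above and 1 below, with 11 above and 11 below the typical mRNA. Their list median was 1.30 with all exons and 1.23 without exons over small RNA genes.

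**Figure D4:**
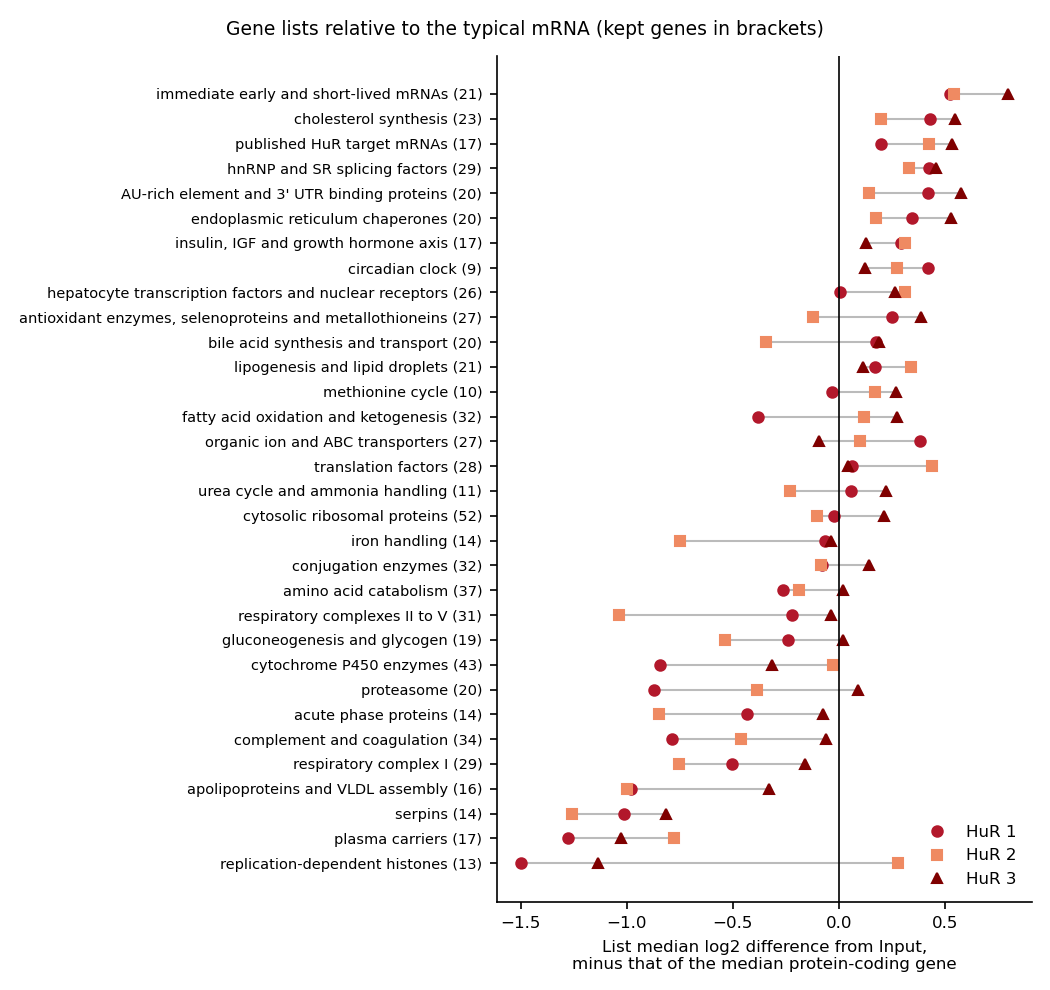
Median log2 difference from Input of each gene list in HuR 1, 2 and 3 (symbols joined by a line), less the median protein-coding gene of the same library; the major urinary proteins are not drawn. Immediate early, cholesterol synthesis, splicing factor and AU-rich element binding protein lists lie to the right of 0 in each HuR library, and plasma carriers, serpins and apolipoproteins to the left in each.

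The major urinary proteins, a large family of near-identical genes for excreted pheromone carriers, split the HuR libraries. All 21 kept members lay above Input in HuR 1 and HuR 3, 19 of them at least 2-fold in both, and all 21 lay below Input in HuR 2. The list medians were 3.20, -0.83 and 4.21. Summed over the list, the level was 6597, 385 and 12634 RPKM in HuR, 718 in Input, and 745, 254 and 318 in IgG. HuR 2 is the library with high Xist and Eif2s3y at 0; the part of this difference in the other results was not tested beyond leaving HuR 2 out. Reads of these copies cannot be assigned to 1 gene with confidence.

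Over the same kept genes, the counts without HuR 2 asked for only the other 2 libraries and could not be smaller. They were chosen after the data had been examined. Of protein-coding genes 3251 lay above Input and 201 below. Immediate early mRNAs above Input numbered 19 of 21, AU-rich element binding proteins 20 of 20, splicing factors 29 of 29, HuR targets from the literature 15 of 17, cholesterol genes 20 of 23 and chaperones 17 of 20. Below the typical mRNA lay 14 of 17 plasma carriers, 12 of 14 serpins and 9 of 16 apolipoprotein and VLDL genes. Complex I genes above Input went from 11 to 18 of 29, and cytochrome P450 genes below Input went from 2 to 11 of 43. All 21 major urinary protein genes lay above Input. By class, 121 of 166 small nuclear RNAs and 238 of 295 small nucleolar RNAs lay above, 97 of 120 ribosomal RNAs below, and processed pseudogenes were even, with 182 above and 182 below.

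Markers of other cell types summed to less than those of hepatocytes. The 14 erythroid and lymphocyte markers, which include globins, summed to 173, 69.2 and 135 RPKM in HuR and 69.3 in Input. For the cells of the liver itself, summed levels were 19.5 to 34.8 RPKM in HuR and 11.5 in Input for the 14 Kupffer cell and macrophage markers, 11.8 to 25.3 and 3.51 for the 12 sinusoidal endothelial markers, 5.6 to 16.7 and 4.29 for the 12 stellate markers, and 9.2 to 13.1 and 0.677 for the 8 cholangiocyte markers. Sinusoidal endothelial markers lay above Input in 7 of 8 kept genes, Kupffer cell markers in 6 of 10 (60%) and stellate markers in 3 of 6 (50%), beside 70.9% of all protein-coding genes. Mean log2 differences ran from 0.27 to 2.63, from -0.88 to 1.96 and from -1.08 to 2.94 in these lists, and the genes named next are their highest members. Fcgr2b, the scavenging Fc receptor of the sinusoid, was at 3.74, 3.85 and 2.64 RPKM against 0.126. Lyz2, a macrophage lysozyme, was at 4.6, 9.24 and 5.48 RPKM against 1.21, Rgs5, a pericyte marker, at 6.49, 5.78 and 2.28 against 0.148, and Spp1, osteopontin, at 10.1, 1.48 and 6.68 against 0.273. In whole liver, fewer cells of a type and less RNA per cell cannot be told apart.

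The control pull-down shared part of the rise over Input. Of the 1801 genes at least 2-fold above Input in all 3 HuR libraries, 290 were also at least 2-fold above Input in all 3 IgG libraries, as were 446 (7.04%) of all kept genes. In 1109 of the 1801 genes all 3 HuR libraries lay above all 3 IgG libraries, beside 31.3% of all genes tested. The test of HuR against IgG called 33 of the 1801 genes higher and 0 lower, beside 0.672% and 0.127% of all genes tested. All 37 genes called higher than IgG lay above Input in all 3 HuR libraries, 33 of them at least 2-fold. Of all kept genes 59.1% lay above Input. Genes on either side of Input were chosen by the same HuR values, so their place against IgG is not separate support. Of the 337 genes below Input, 198 could be tested, and 2 were called lower and 0 higher. IgG 1 stood apart: without it the same test called 1761 genes higher and 28 lower, while without IgG 2 it called 0 and 0 (844 and 206 before adjustment, at p under 0.05).

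The annotation's 3′ UTRs, which the choice of libraries did not use, differed along the scale from Input to HuR. Of the 4118 kept protein-coding genes, 4002 had a 3′ UTR of at least 50 bases in the transcript with the longest coding sequence. The median UTR was 1484 bases in the 847 genes above the typical mRNA in all 3 HuR libraries, 500 bases in the 763 genes below it and 958.5 bases in all 4002. Genes with a UTR under 250 bases had medians of -0.55, -0.67 and -0.46 relative to the typical mRNA, and genes with one over 2000 bases 0.20, 0.25 and 0.19; the order of the 5 length classes was the same in each HuR library. U made up 30.3% of the UTR (median) in the genes above, 27.1% in those below and 29% in all. Median Input was 0.467 RPKM in the genes above, 0.686 in those below and 0.352 in all. Here too, genes with Input under 0.5 RPKM were kept only through a higher HuR mean. The part of Input level and filter in these differences was not tested.

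Motifs were searched on the transcript strand of the 3′ UTRs as TTTTTTT and TTTATTT, letters known for HuR, and ATTTA and TATTTAT, letters of AU-rich elements, with overlapping matches counted. TTTTTTT was in 57.1% of the UTRs above the typical mRNA, 26.5% of those below and 41.9% of all; its density was 2.70, 1.76 and 2.24 per kilobase. TTTATTT was in 47.7%, 22.4% and 36.5%, at 0.52, 0.41 and 0.49 per kilobase, and ATTTA in 78.4%, 45.7% and 63.9%, at 1.94, 1.49 and 1.78 per kilobase. TATTTAT was in 28.7%, 14.5% and 23.8%, but its density was 0.223, 0.226 and 0.247 per kilobase. Among UTRs of 500 to 1500 bases the shares lay closer together: TTTTTTT was in 44.6% of 305 above and 33.9% of 242 below, TTTATTT in 31.8% and 28.1%, ATTTA in 73.4% and 59.5%, and TATTTAT in 20% and 15.7%. Densities in that range differed about as much as over all lengths for TTTTTTT, at 2.76 and 1.91 per kilobase, and ATTTA, at 1.88 and 1.39. For TTTATTT they lay closer together than over all lengths, at 0.493 and 0.447, and for TATTTAT they were 0.255 and 0.240. Median Input among UTRs of 500 to 1500 bases was 0.577 RPKM above and 0.568 below. The genes are not independent, and no test was made.

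Windows of 30 bases around a match are shown for 5 mRNAs described above, to show the kind of stretch counted; capitals mark the first TTTATTT of the 3′ UTR or, where there is none, the first TTTTTTT. They come from GENCODE M21 on GRCm38/mm10: Slc35e2 at chr4:155619859-155619888, plus strand; Actb at chr5:142903682-142903711, minus strand; Mcl1 at chr3:95661584-95661613, plus strand; Hmgcs1 at chr13:119706826-119706855, plus strand; and Srsf3 at chr17:29041932-29041961, plus strand. All lie in the 3′ UTR.
Slc35e2: tatgtctacatTTTATTTacttgaaaaagc
Actb: gcatggctttgTTTTTTTaaatttttttta
Mcl1: cttggatttagTTTTTTTccataccctttt
Hmgcs1: ttaaaaaaacgTTTTTTTttttcttttttt
Srsf3: attgtaacgtcTTTATTTggaaatgtaaaa

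Neither motif was in the 3′ UTR models used for Cyb5r3, Rida, Ormdl3, Nrn1, Rsl24d1, Cd164 or Mettl7a1, the other genes farthest above Input with no small RNA, nor in those of Alb, Ambp and Cyp2d26. These models were 1484 bases for Cyb5r3, 458 for Rida and 2207 for Cd164, but 45 for Rsl24d1, 170 for Nrn1, 169 for Alb, 100 for Ambp and 76 for Cyp2d26. An absent match says only that these letters are not in the window searched.

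Reads of HuR libraries lay toward the 3′ end of genes. In 2499 protein-coding genes with 3 or more exon blocks, the last exon held a median of 84.4%, 69.4% and 87.6% of a gene's reads in HuR 1, 2 and 3, 42.5% in Input and 52.9%, 43.3% and 33.3% in IgG. All 3 HuR libraries were above Input and above IgG (exact permutation test of the library medians, two-sided, p = 0.1, the smallest possible). The share was above Input in all 3 HuR libraries in 1426 genes (57.1%) and below in 94. In the 673 of these genes with 1 RPKM or more in Input the medians were 85.3%, 68.1% and 90.2% against 35.1%. For Cyb5r3 the last exon held 99.8%, 96.2% and 99.3% in HuR and 61.9% in Input. RNA integrity is not given in the labels, and its part in this share was not tested.

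**Figure D5:**
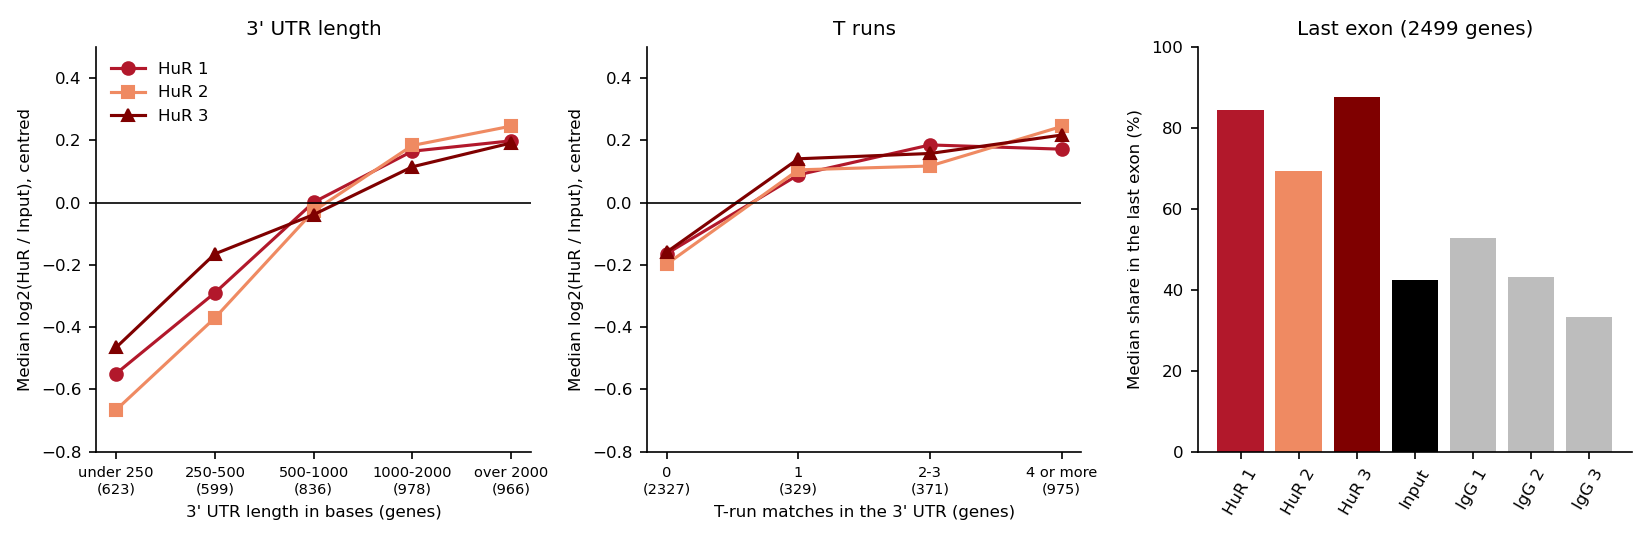
Left and middle, median log2 difference from Input relative to the median protein-coding gene, by length of the annotated 3′ UTR and by number of matches to the run of T in it, for HuR 1, 2 and 3 (genes per class in brackets); right, median share of a gene's reads in its last exon (percent) in each library. The lines climb from -0.67 to -0.46 at the shortest UTRs to 0.19 to 0.25 at the longest, and the HuR bars of 69.4% to 87.6% stand above Input at 42.5%.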

How the data were processed

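Native HuR and IgG pull-downs and lysate Input were sequenced from total RNA on the Ion platform, per the labels' protocols. The submitters' processing notes name Bowtie2, featureCounts and the mm10 build; versions were not given in the sources used here. RPKM values were deposited by the authors per exon for 3 HuR, 3 IgG and 1 merged Input column, with log2 fold values whose pseudocount of 1 RPKM was inferred from the values. Numbers from 1 upward lacked the decimal mark in the table; marks were restored so that RPKM and deposited log2 folds matched, a step tested on simulated data. The RPKM column names number HuR 2 and HuR 3 in the other order than the deposited folds, and the RPKM names were followed. The deposited p-value columns were not used. Library sizes were estimated from the steps of low values. The labels give 1 liver per pull-down, and the column headers end in M or F with no explanation; p-values measure the spread between these samples.

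Exons were summed to genes over merged exon length, and classes and names came from GENCODE M21. Genes averaging 0.5 RPKM over the HuR mean and Input were kept, and log2(RPKM + 0.5) was compared with Input in each library. HuR and IgG were compared with limma 3.58.1 in R 4.3.3 (trend and robust options, genes at 0.5 RPKM or more in 3 of 6 libraries, Benjamini-Hochberg adjustment), tested on simulated data. Other values used Python 3.11.15. Library shares were compared by exact permutation. The 44 gene lists and the members were chosen with earlier results of these data known. Named genes were the 15 per direction with the largest smallest-of-3 difference among genes at least 2-fold from Input with 5 RPKM or more in the higher group, leaving out Gm, Rik, pseudogene and structural RNA names; up to 3 per small RNA class; up to 4 per list; and Elavl1, Alb, Apob, Actb, Malat1, Neat1, Cycs, Ndufb6, Uqcrb and Mat2a. Genes outside this rule are said to be so. Some items the rule named are not reported here. Alternatives changed scaling, pseudocount, filter, fold, exon summary and libraries.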

Additional observations from a re-analysis of the deposited data

How the results depend on the processing

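Input is 1 pooled column of unknown depth, so neither its spread nor a floor for genes at 0 can be given, and every count against Input moves with the scaling. The main counts were 3749 genes above, 337 below, 1801 at least 2-fold above and 144 at least 2-fold below. Scaled to listed reads outside the ribosomal repeat they were 1762, 565, 378 and 256, and centred at the median protein-coding gene 1238, 1343, 322 and 437. Scaled to protein-coding reads with those of Lars2 included, 1094 were at least 2-fold above. With no filter 7171 lay above, 4851 below and 257 at least 2-fold below; with a filter of 2 RPKM the counts were 1385, 148, 986 and 46. A pseudocount of 1 gave 1136 at least 2-fold above. A fold of 4 gave 484 above and 38 below. The highest exon per gene gave 702 below and 306 at least 2-fold below. Leaving out each HuR library gave 4237 to 4432 above, 422 to 461 below, 2306 to 2675 at least 2-fold above and 182 to 242 at least 2-fold below. Centred as well, an alternative chosen after seeing the data, it gave 1655, 1769, 390 and 555 without HuR 1, 1737, 1865, 517 and 610 without HuR 2, and 1620, 1793, 447 and 601 without HuR 3. Without the ribosomal repeat the mean HuR share was 38.3% for protein-coding genes other than Lars2 and 4.94% for small nucleolar RNAs. Of all listed reads the mean HuR shares were 22.1% and 2.79%. Leaving out each HuR library moved these shares of all listed reads to 17.7% to 26.2%, and to 2.04% to 3.75%.

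Direction reversed for few named genes. Centred, the log2 difference from Input was -1.24 for Alb, -0.53 for Gc and -0.79 for Serpina1b. Centred without HuR 1 it was -1.22, -0.61 and -0.83, with Apob at -0.060; without HuR 2 it was -1.29, -0.53 and -0.95; and without HuR 3 it was -1.39, -0.64 and -0.78, with Apob at -0.0036 and Uqcrb at -0.53. Outside the ribosomal repeat it was -0.94, -0.22 and -0.47 for Alb, Gc and Serpina1b. Alb was at -0.42 when scaled to protein-coding reads with those of Lars2 included. By its highest exon Ambp was at 0.23. The cause was not tested.

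HuR against IgG called 37 higher and 7 lower with limma. Counts were 3 and 1 with a pseudocount of 1, 0 and 0 with no filter (1193 and 101 at an unadjusted p under 0.05), and 1 and 18 with libraries centred at their medians. Leaving out 1 library gave 0 to 1761 higher and 0 to 30 lower, the extremes without IgG 1 (1761 and 28), IgG 2 (0 and 0) and IgG 3 (42 and 30). Blocking on the replicate number gave 0 and 0 (1665 and 238 unadjusted); same-numbered HuR and IgG libraries correlated at 0.138, 0.117 and 0.086, so the numbers were not taken to pair the samples.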
